A study of Mus musculus with 16 samples.

Results

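Undifferentiated mouse embryonic stem cells labelled as knockout for the Polycomb subunit Suz12 were compared with wild-type cells of the E14 line, both sampled at 0 h, before any retinoic acid was given. The knockout line (Suz12-KO) is labelled with the genotype Suz12-/-, and the other line is labelled E14-WT (WT). Both were grown in serum medium with leukemia inhibitory factor (LIF) on gelatin. The same lines were also sampled after 24, 48 and 72 h in medium with 1 µM all-trans-retinoic acid and no LIF, which makes 16 samples in 8 groups of 2. Total RNA was depleted of ribosomal RNA and sequenced. The deposited table holds 1 column per group, in RPKM (reads scaled to gene length and library size), so the 4 samples at 0 h enter as 2 columns. No spread between replicates, no standard deviation and no test could be had from them. The genes compared were the protein-coding and long non-coding genes with at least 1 RPKM in either 0 h column. These were 7503 of the 24452 genes in the table, 7399 of them protein-coding and 104 long non-coding. At this limit the gene just inside was 4930452B06Rik with 1.0008 RPKM in Suz12-KO and 0.549 in WT, and the gene just outside was Fuom with 0.99981 RPKM in Suz12-KO and 0.544 in WT. How the Suz12 gene was disrupted, and whether the Suz12-KO line descends from the E14-WT line, is unknown from the labels and files. Each genotype is 1 line, so effects of Suz12 loss and other differences between the lines cannot be told apart.

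Polycomb repressive complex 2 (PRC2) is built around Suz12, Eed and the methyltransferases Ezh2 or Ezh1, and it trimethylates lysine 27 of histone H3 over silent genes. In embryonic stem cells its targets are mostly CpG-rich promoters of developmental regulators, including the Hox, Olig and Nkx genes. PRC1 complexes with Cbx proteins, such as Cbx7, bind this mark. Embryonic stem cells without Suz12 are known to be viable in culture.

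RPKM values are printed as deposited, with exact Poisson 95% intervals in brackets that come from the recovered whole read numbers and cover counting error only. The columns rest on 27205523 reads in Suz12-KO and 25824216 reads in WT. A single annotated RNA, Gm42418, took 63.0% of the reads in Suz12-KO and 65.5% in WT, and protein-coding genes took 23.1% in Suz12-KO and 21% in WT. That protein-coding share includes Lars2, which alone took 5.01% of all reads in Suz12-KO and 5.34% in WT. The log2 differences given are Suz12-KO minus WT on the log2(scaled RPKM + 0.5) scale. Scaling divides each column by its median-of-ratios factor and, before 0.5 is added, lowers the log2 ratio by 0.27 against the deposited values. With 0.5 added the shift varies with the level of the gene, and the median over the 7503 genes compared went from 0.20 to -0.03. Low genes have their change understated on this scale. A gene was counted as 2-fold higher or lower where this difference was at least 1 or at most -1. The markers of embryonic stem cells Pou5f1, Nanog, Sox2, Zfp42, Esrrb and Dppa5a were all above 1 RPKM in both columns and summed to 459 RPKM in Suz12-KO and 379 RPKM in WT. None of 7 fibroblast, 6 endoderm and 4 trophoblast markers reached 1 RPKM in either column, and their sums were 0.359, 1.02 and 0.148 RPKM in Suz12-KO against 0.469, 0.136 and 0.0774 RPKM in WT. Of those fibroblast markers, 4 stood at 0 in Suz12-KO and 6 in WT. Of 5 neural markers 1, Tubb3, was above 1 RPKM in both columns, and the list summed to 9.05 RPKM in Suz12-KO and 11.9 RPKM in WT.

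The Suz12 gene itself was still transcribed in the Suz12-KO column. It had 2.59 RPKM [2.33 to 2.88] from 349 reads in Suz12-KO and 2.94 RPKM [2.65 to 3.25] from 375 reads in WT, a log2 difference of -0.39. The read numbers give no view of which exons were covered, so this level does not check the label, and the Suz12-KO column is described as the one labelled so. The other core subunits were close to the WT level. Ezh2 had 5.98 RPKM in Suz12-KO and 4.42 in WT (log2 difference 0.16), and Eed had 22.4 RPKM in Suz12-KO and 18.8 in WT (-0.02). Ezh1 had 0.845 RPKM in Suz12-KO and 1.02 in WT (-0.38). The histone-binding subunits Rbbp4 and Rbbp7 had 16.7 and 18.2 RPKM in Suz12-KO and 17 and 17.8 RPKM in WT (-0.29 and -0.23). Of the 10 members among 14 PRC2 subunits, 0 were 2-fold higher or lower, against 3.16% of all members. The largest difference was that of Mtf2, which links PRC2 to CpG-rich DNA, with 8.13 RPKM in Suz12-KO and 10.0 in WT (-0.54). The PRC1 list had a median below that of all members. Its 13 members had a median of -0.41 against -0.03 over all 7503 members, and 10 of the 13 were below 0, against 54.2% of all members. As deposited the median was -0.19 for PRC1 and 0.20 for all members, and 7 of the 13 were below 0, against 23.0% of all members. Cbx7, the main Cbx protein of canonical PRC1 in these cells, had 3.54 RPKM [3.26 to 3.82] in Suz12-KO and 8.32 RPKM [7.89 to 8.77] in WT. It was the only 1 of the 13 PRC1 members that was 2-fold lower, against 1.35% of all members. Among enzymes that set or remove methyl groups at H3K27 and H3K4, 0 of 14 were 2-fold different, against 3.16% of all members. The H3K4 demethylase gene Kdm5b had 20.7 RPKM in Suz12-KO and 32.1 in WT (-0.89).

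Most genes differed little between the lines at 0 h. Of the 7503 members, 6428 (85.7%) lay within 0.5 log2 of equality, and the middle 95% of the protein-coding members ran from -0.74 to 0.87. In Suz12-KO 136 members (1.81%) were at least 2-fold higher and 101 (1.35%) at least 2-fold lower, 237 (3.16%) in all. Of these, 10 were at least 4-fold higher and 13 at least 4-fold lower. The counting interval of the ratio excluded equality for 235 of the 237. The same reads chose these genes, so this is no separate support for them, and intervals were wide where a column held few reads. Many of the called genes were low in 1 line. Of the 136 higher genes 77 were under 1 RPKM in WT, where 751 of all 7503 members were. Of the 101 lower genes 53 were under 1 RPKM in Suz12-KO, where 180 of the 7503 were. A 2-fold cut on genes kept from 1 RPKM makes such low values likely. The counts depend on scaling, pseudocount and filter. Without scaling the counts were 220 higher and 56 lower. With a pseudocount of 1 the counts were 83 higher and 70 lower, and among genes with 1 RPKM in both columns 59 higher and 48 lower. In bulk RNA, more cells of one kind and more RNA per cell cannot be told apart.

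**Figure D1:**
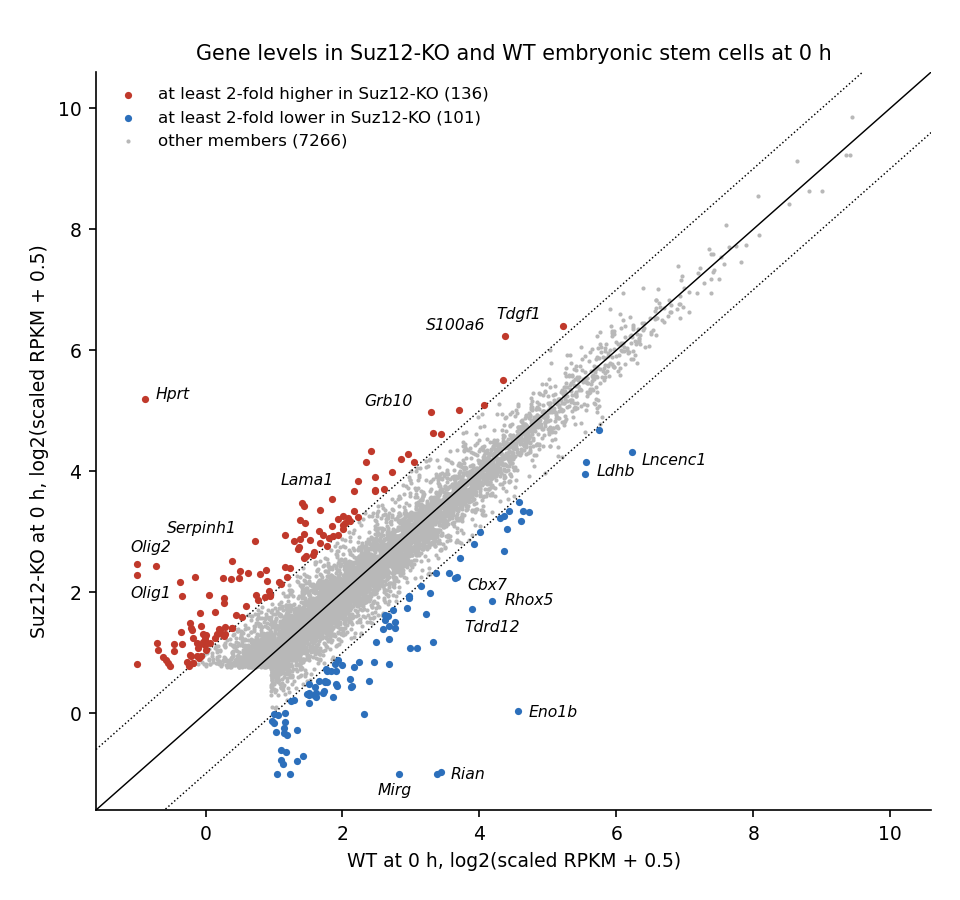
Each point is 1 of the 7503 members, with its level in Suz12-KO on the y axis and in WT on the x axis, both as log2(scaled RPKM + 0.5) at 0 h. The solid line marks equality and the dotted lines a 2-fold difference; the 136 higher genes (red) and the 101 lower genes (blue) flank a narrow band that holds 7266 members.

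On the log2(scaled RPKM + 0.5) scale the largest difference was that of Hprt, which encodes the purine salvage enzyme hypoxanthine phosphoribosyltransferase. It had 30.1 RPKM [28.3 to 32] from 1056 reads in Suz12-KO and 0.0300 RPKM from 1 read in WT, a log2 difference of 6.07. The counting interval of the scaled read ratio, without pseudocount, ran from 7.22 to 15 on the log2 scale. By this ratio the non-coding RNA Rian differed more, 1367-fold lower from 3 reads in Suz12-KO, against 833-fold higher for Hprt from 1 read in WT, and their counting intervals overlap in size. The gap held in the later columns, with 34.7, 19.4 and 16.1 RPKM in Suz12-KO at 24, 48 and 72 h against 0.0830, 0.0627 and 0 RPKM in WT. Hprt was thus near silent in every WT column and well expressed in every Suz12-KO column. Of the 20 purine salvage and synthesis members it was the only one 2-fold different, against 3.16% of all members. The list had a median of -0.16.

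Among developmental regulators the largest differences were those of the neighbouring genes Olig2 and Olig1 on chromosome 16, basic helix-loop-helix factors of motor neuron and oligodendrocyte development. Olig2 had 4.19 RPKM [3.72 to 4.72] from 278 reads in Suz12-KO and 0 reads in WT, where a count of 0 allows up to 3 reads, or 0.0477 RPKM. Against that floor it was 73.1-fold higher on scaled values, and the counting interval of the log2 read ratio began at 5.88. Olig1 had 3.64 RPKM from 215 reads in Suz12-KO and 0 reads in WT, 56.5-fold higher against a floor of 3 reads. Its counting interval began at 5.51. Nkx6-2, a homeobox factor of the ventral neural tube, had 3.47 RPKM [2.98 to 4.02] in Suz12-KO and 0.549 RPKM [0.362 to 0.798] in WT. Cdx1, a caudal homeobox factor and retinoic acid target, had 1.43 RPKM in Suz12-KO and 0.199 in WT. Zic5, a zinc finger factor of the neural plate, went the other way with 0.233 RPKM in Suz12-KO and 1.24 in WT. The other developmental factors with 1 RPKM were Pou4f2 at a log2 difference of 0.73 and Tfap2c at -0.94.

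Most of the family was too low to compare. Of 150 developmental transcription factors in the table, 143 stayed under 1 RPKM in both columns and only 7 were members, 4 of them higher and 1 lower. A member that is under 1 RPKM in WT passes the limit only where Suz12-KO is high, so this count is no measure of the family. All 37 Hox genes were under 1 RPKM in both columns, and together they had 14 reads in Suz12-KO and 17 in WT. The reads of all 150 developmental factors summed to 1792 in Suz12-KO and 1074 in WT, a scaled ratio of 1.32 with a counting interval of 1.22 to 1.42. The 4 higher genes carried that sum, with 741 reads in Suz12-KO and 36 in WT. The other 146 factors had 1051 reads in Suz12-KO and 1038 in WT, a scaled ratio of 0.799 (0.732 to 0.871), and without the lower gene Zic5 too the ratio was 0.912 (0.833 to 1.00).

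Promoters of 3 higher genes (Olig2, Nkx6-2, Serpinh1) and of Tdrd12, the lower one of the 4 genes that mark the comparison, are shown as picked examples. Each runs 300 bases in the direction of transcription, 250 before to 50 after the RefSeq start on GRCm38.p6, and capitals mark each CpG, the letters CG, which read the same on both strands.
Olig2, chr16:91225300-91225599, plus strand: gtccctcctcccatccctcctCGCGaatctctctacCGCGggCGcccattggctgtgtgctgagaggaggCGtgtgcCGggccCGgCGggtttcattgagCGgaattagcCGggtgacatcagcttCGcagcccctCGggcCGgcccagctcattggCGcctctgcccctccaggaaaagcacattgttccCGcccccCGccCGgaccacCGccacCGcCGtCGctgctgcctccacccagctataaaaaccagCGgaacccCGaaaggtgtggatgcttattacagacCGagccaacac
Nkx6-2, chr7:139582748-139583047, minus strand: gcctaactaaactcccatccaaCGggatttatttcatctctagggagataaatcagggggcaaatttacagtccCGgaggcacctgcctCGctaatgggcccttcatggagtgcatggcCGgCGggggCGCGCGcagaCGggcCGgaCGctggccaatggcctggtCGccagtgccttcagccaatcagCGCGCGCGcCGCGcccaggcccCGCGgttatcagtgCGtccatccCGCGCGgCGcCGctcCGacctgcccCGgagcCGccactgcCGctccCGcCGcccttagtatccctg
Serpinh1, chr7:99353190-99353489, minus strand: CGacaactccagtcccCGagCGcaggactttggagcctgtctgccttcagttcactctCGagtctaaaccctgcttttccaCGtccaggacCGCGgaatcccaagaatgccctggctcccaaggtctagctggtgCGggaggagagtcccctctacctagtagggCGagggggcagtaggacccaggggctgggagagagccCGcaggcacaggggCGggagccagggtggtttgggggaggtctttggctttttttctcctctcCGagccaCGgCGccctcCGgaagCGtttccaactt
Tdrd12, chr7:35537695-35537994, minus strand: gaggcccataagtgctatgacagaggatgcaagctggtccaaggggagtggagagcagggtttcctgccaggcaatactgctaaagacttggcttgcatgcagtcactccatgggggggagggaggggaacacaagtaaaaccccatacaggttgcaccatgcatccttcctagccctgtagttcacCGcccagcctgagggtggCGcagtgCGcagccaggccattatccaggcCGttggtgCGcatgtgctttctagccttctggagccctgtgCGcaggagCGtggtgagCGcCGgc
The Nkx6-2 window held 32 CpG, the Olig2 window 25, the Serpinh1 window 16 and the Tdrd12 window 9. At least 1 CpG was present in 94.6% of the 32851 promoters in the RefSeq table, and the median was 7. As many as in Nkx6-2 were held by 9.52% of them, as many as in Olig2 by 18.4%, as many as in Serpinh1 by 33.0% and as many as in Tdrd12 by 45.8%. A comparison of CpG content between all higher and lower genes is void, because a promoter was found for only 90 of 131 higher (68.7%) and 60 of 89 lower (67.4%) protein-coding genes. The 4 picked windows cannot stand in for it. The 32851 promoters are also not limited to the genes compared here. Whether PRC2 binds these promoters was not tested.

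Some genes of basement membrane and collagen folding were among the higher ones. Serpinh1, the collagen chaperone Hsp47, had 5.62 RPKM [5.06 to 6.22] in Suz12-KO and 0.795 RPKM [0.590 to 1.05] in WT (log2 difference 2.13). Kdelr3, a receptor that returns proteins to the endoplasmic reticulum, had 8.94 RPKM in Suz12-KO and 1.51 in WT (2.07). These were the only 2 members 2-fold higher among 29 of collagen folding and secretion, against 1.81% of all members. Of the 29, 0 were 2-fold lower, and their median was 0.04. The adjacent type IV collagen genes Col4a1 and Col4a2 had 2.79 and 1.18 RPKM in Suz12-KO against 0.199 and 0.105 RPKM in WT, which places both among near-silent genes in WT. Lama1, the laminin chain of the embryonic basement membrane, had 10.3 RPKM in Suz12-KO and 2.77 in WT (1.51). Nid2, a nidogen that links laminin and type IV collagen, was lower, with 7.56 RPKM in Suz12-KO and 13.9 in WT (-1.10). The 13 members of the endoderm and basement membrane list therefore split, with 3 higher and 1 lower, against 1.81% and 1.35% of all members, and a median of -0.05. The endoderm factors Gata4, Gata6 and Sox17 had 0.264, 0.253 and 0.186 RPKM in Suz12-KO and 0.0595, 0 and 0 RPKM in WT, all far under the limit of 1 RPKM. Their part in the matrix genes was not tested.

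Epithelial and cytoskeletal genes gave further large differences. Sfn, the epithelial 14-3-3 sigma protein, had 16.5 RPKM [15.4 to 17.8] in Suz12-KO and 3.36 RPKM [2.83 to 3.97] in WT. Wfdc2, a secreted epithelial protease inhibitor, had 8.61 RPKM in Suz12-KO and 1.53 in WT. S100a6, a calcium-binding protein, had 62.6 RPKM in Suz12-KO and 14.1 in WT (log2 difference 1.86), among the most abundant of the higher genes. The desmosomal cadherin Dsg2 had 3.72 RPKM in Suz12-KO and 0.862 in WT, whereas the epithelial splicing factor Esrp1 had 0.944 RPKM in Suz12-KO and 2.27 in WT. Of 24 epithelial members 4 were higher and 1 lower, against 1.81% and 1.35% of all members. The median was 0.17, and the cadherin Cdh1 itself was at 0.01. Vim, the intermediate filament vimentin, had 26.6 RPKM in Suz12-KO and 8.76 in WT (1.30). The 7 fibroblast markers were at the near-zero sums given above. In a longer list of 22 fibroblast genes, which holds Vim, 20 were under 1 RPKM in both columns. Its only other member, Fn1, went the other way at -0.80, with 13.4 RPKM in WT.

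The remaining genes at the upper end had varied roles. Apoa2, an apolipoprotein, had 4.11 RPKM in Suz12-KO and 0.0721 in WT, where the WT value is 1 read and the counting interval of the log2 read ratio ran from 3.03 to 10.9. Pmaip1, which encodes the p53-induced cell death protein Noxa, had 3.36 RPKM in Suz12-KO and 0.190 in WT. It was the only 1 of 32 p53 pathway members that was 2-fold different, against 3.16% of all members. Cpe, a carboxypeptidase of prohormone processing, had 3.56 RPKM in Suz12-KO and 0.278 in WT. Pttg1, the securin that holds separase in check before anaphase, had 4.36 RPKM in Suz12-KO and 0.561 in WT. Nlrp4f, an NLR-family gene, had 3.54 RPKM in Suz12-KO and 0.483 in WT. A2m, a protease inhibitor of the blood, had 2.81 RPKM in Suz12-KO and 0.373 in WT, and Hal, the histidine-degrading ammonia lyase, had 1.45 RPKM in Suz12-KO and 0.0768 in WT. All of these levels were low beside those of pluripotency genes, and none of the 7 reached 5 RPKM.

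**Figure D2:**
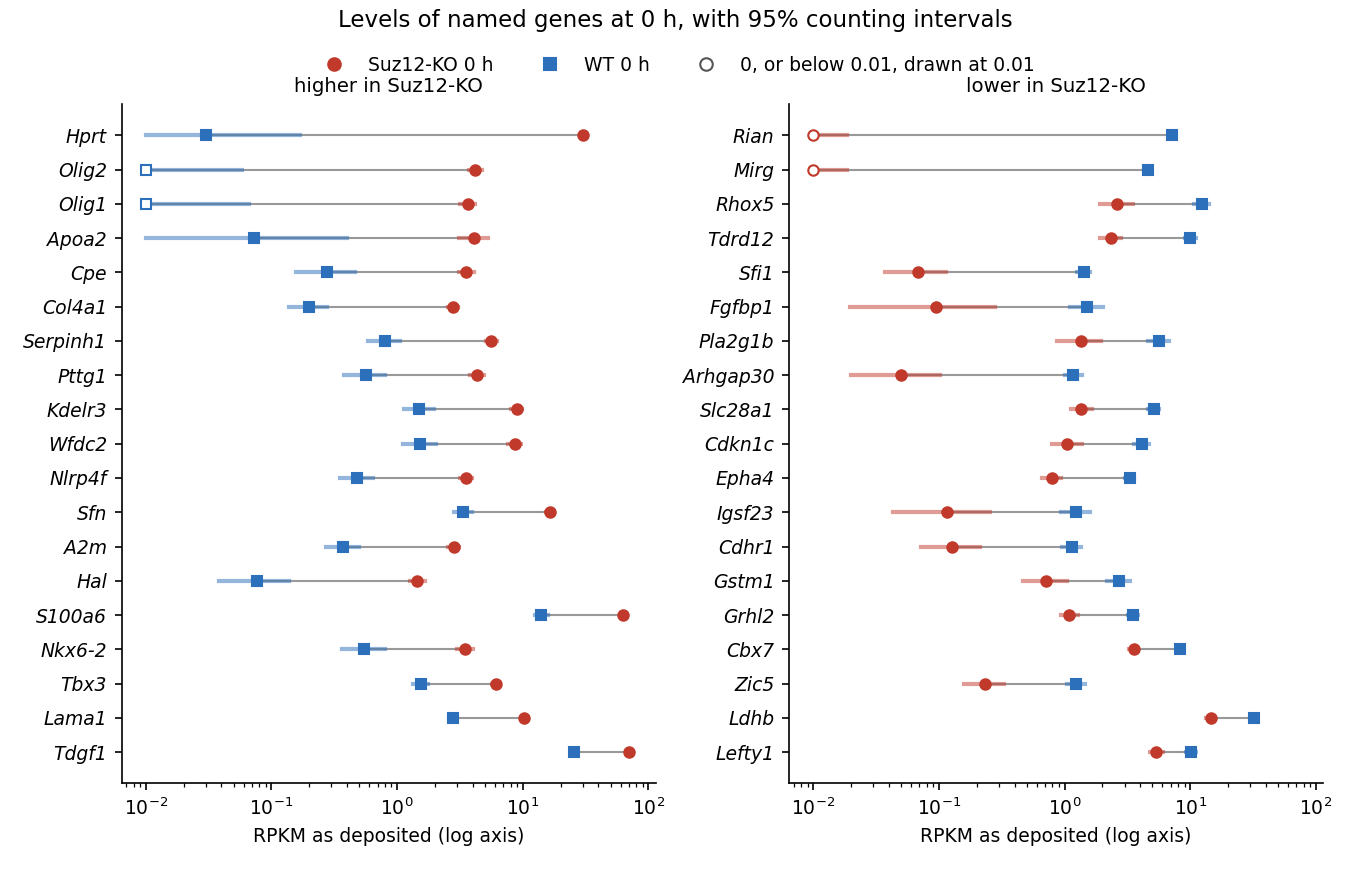
RPKM as deposited (log axis) of 38 named genes at 0 h in Suz12-KO (red circles) and WT (blue squares), with thick bars for the 95% counting interval; open symbols stand at 0.01 for values of 0 or below 0.01. Hprt, Olig2 and Olig1 are near 0 in WT, whereas S100a6, Lama1 and Tdgf1 are well expressed in both columns.

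The pluripotency network was largely kept. Pou5f1, which encodes Oct4, had 137 RPKM in Suz12-KO and 104 in WT (log2 difference 0.13). Nanog had 77.0 RPKM in Suz12-KO and 62.1 in WT (0.04), and Sox2 had 25.3 RPKM in Suz12-KO and 21.4 in WT (-0.03). Of 35 core and naive members 4 were higher and 0 lower, against 1.81% and 1.35% of all members, and the median was 0.04. Tbx3, a T-box factor of the naive state, had 6.10 RPKM in Suz12-KO and 1.54 in WT. Tdgf1, the Nodal co-receptor Cripto, had 70.6 RPKM in Suz12-KO and 25.6 in WT. Spp1, the secreted phosphoprotein osteopontin, had 37.7 RPKM in Suz12-KO and 13.7 in WT. Socs3, the feedback inhibitor of LIF signalling, had 10.5 RPKM in Suz12-KO and 3.91 in WT. Zfp42 and Klf2 pointed the other way without reaching 2-fold, at -0.68 and -0.52. The formative and primed epiblast list had a median below that of all members. Of its 12 members 3 were lower and 0 higher, against 1.35% and 1.81% of all members. Below 0 were 8 of the 12, against 54.2% of all members, and the median was -0.54, or -0.28 as deposited. Grhl2, a grainyhead factor that opens epithelial enhancers, had 1.09 RPKM [0.928 to 1.27] in Suz12-KO and 3.50 RPKM [3.20 to 3.82] in WT. Lefty1, a Nodal antagonist, had 5.37 RPKM in Suz12-KO and 10.2 in WT, and Zic2 had 0.753 RPKM in Suz12-KO and 1.64 in WT. Lefty1 and Zic2 fell short of 2-fold on deposited values, at -0.86 and -0.77. Otx2, Tcf15 and Etv4 in that list were above 0.

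Signalling genes were divided. Of 26 members for Nodal, FGF, BMP and Wnt signalling 3 were higher and 3 lower, against 1.81% and 1.35% of all members. Dusp6, the phosphatase that feeds back on ERK, had 20.2 RPKM in Suz12-KO and 7.22 in WT, and Tdgf1 is the second of the higher genes. The BMP-responsive inhibitors of differentiation did not move together. Id1 had 28.4 RPKM [26.5 to 30.3] in Suz12-KO and 11.3 RPKM [10.2 to 12.6] in WT, whereas Id2 had 2.81 RPKM in Suz12-KO and 5.09 in WT and Id3 had 1.87 RPKM in Suz12-KO and 4.11 in WT. Id2 and Id3 were under 2-fold on deposited values, at -0.76 and -0.96. The retinoic acid response list had 7 members, with 2 higher and 0 lower, against 1.81% and 1.35% of all members. The 2 were Cdx1 and the transglutaminase gene Tgm2 (1.94 RPKM in Suz12-KO and 0.244 in WT). Both were under 1 RPKM in WT and passed the limit only through Suz12-KO, so this count is no measure of the list. The other 19 of its 26 genes were under 1 RPKM in both columns.

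Some germline genes were at the lower end. Tdrd12, a Tudor-domain protein of the piRNA pathway, had 2.34 RPKM [1.91 to 2.83] from 103 reads in Suz12-KO and 10.0 RPKM [9.08 to 11] from 419 reads in WT (log2 difference -2.18). Tuba3a, a testis tubulin, had 0.731 RPKM in Suz12-KO and 2.72 in WT, and Sohlh2, a helix-loop-helix factor of early germ cells, had 1.06 RPKM in Suz12-KO and 2.24 in WT. Piwil2, the Piwi protein Mili, was higher, with 3.40 RPKM in Suz12-KO and 0.946 in WT. Over 15 germline members 3 were lower and 1 higher, against 1.35% and 1.81% of all members. The median was -0.18, or 0.08 as deposited. The meiosis gene Dmc1 is not in that list and was higher, at a log2 difference of 1.21. Rhox5, the X-linked reproductive homeobox gene, had 2.61 RPKM [1.91 to 3.50] in Suz12-KO and 12.3 RPKM [10.7 to 14.1] in WT, and it was the only member of the Rhox cluster. Its 10 other genes in the table were under 1 RPKM in both columns.

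Imprinted genes held several of the lower genes. The long non-coding RNAs Rian and Mirg, which lie in the imprinted Dlk1-Dio3 domain on chromosome 12 and are expressed from the maternal allele, were close to undetected in Suz12-KO. Rian had 3 reads in Suz12-KO (0.00631 RPKM) and 3235 reads in WT (7.17 RPKM), with a counting interval of the log2 read ratio from -12.7 to -8.87. Mirg had 0 reads in Suz12-KO and 860 reads in WT (4.57 RPKM), 363-fold lower against a floor of 3 reads. The upper end of its counting interval was -8.20 log2. Meg3, the third maternal RNA of the domain, was just under the limit in WT with 0.972 RPKM from 454 reads, and had 1 read in Suz12-KO. The paternally expressed coding genes Dlk1 and Rtl1 had 3 reads and 1 read in Suz12-KO and 8 reads and 1 read in WT. Elsewhere 5 of 27 imprinted members were lower and 2 higher, where 1.35% of all members were lower and 1.81% higher. Cdkn1c, a cyclin-dependent kinase inhibitor, had 1.05 RPKM in Suz12-KO and 4.09 in WT. Gab1, a docking protein for receptor kinases, had 7.97 RPKM in Suz12-KO and 18.0 in WT. Peg10, a retrotransposon-derived gene, had 8.95 RPKM in Suz12-KO and 16.3 in WT. Smoc1 had 0.273 RPKM in Suz12-KO and 1.41 in WT, and Atp10a had 0.249 RPKM in Suz12-KO and 1.2 in WT. Grb10, a growth factor receptor adaptor, was higher with 25.9 RPKM [25.3 to 26.6] in Suz12-KO and 6.48 RPKM [6.15 to 6.81] in WT, and Nnat, neuronatin, with 1.07 RPKM in Suz12-KO and 0.127 in WT.

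Other protein-coding genes at the lower end included Sfi1, a centrosome protein, with 0.0681 RPKM in Suz12-KO and 1.41 in WT. Arhgap30, a GTPase-activating protein, had 0.0498 RPKM in Suz12-KO and 1.18 in WT. Fgfbp1, a carrier of fibroblast growth factors, had 3 reads in Suz12-KO and 45 reads in WT, with a counting interval of the log2 read ratio from -6.58 to -2.61. Pla2g1b, a secreted phospholipase, had 1.34 RPKM in Suz12-KO and 5.59 in WT, and Slc28a1, a nucleoside transporter, had 1.36 RPKM in Suz12-KO and 5.15 in WT. Epha4, an ephrin receptor, had 0.790 RPKM [0.663 to 0.934] in Suz12-KO and 3.30 RPKM [3.03 to 3.59] in WT. Igsf23, Cdhr1 and Gstm1, the last a glutathione transferase, had 0.116, 0.128 and 0.712 RPKM in Suz12-KO against 1.23, 1.14 and 2.69 RPKM in WT. The neuronal genes Ina and Crmp1, an intermediate filament and a collapsin response mediator, had 2.2 and 1.53 RPKM in Suz12-KO and 6.11 and 4.13 RPKM in WT. Of 6 neural members these 2 were 2-fold lower, against 1.35% of all members. The neural median was -0.74 and 5 of the 6 were below 0. The most abundant member, Stmn2, was above 0, with 28.5 RPKM in Suz12-KO and 18.4 in WT. Among cell-cycle regulators Ccnd2, a cyclin of the D type, had 0.967 RPKM in Suz12-KO and 2.02 in WT. Cdkn2a, a classical Polycomb target that encodes p16 and p19, was higher, with 1.82 RPKM [1.38 to 2.36] in Suz12-KO and 0.496 RPKM [0.278 to 0.819] in WT.

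Of the 104 long non-coding members 17 (16.3%) were 2-fold different, 5 (4.81%) higher and 12 (11.5%) lower, against 131 (1.77%) and 89 (1.2%) of the 7399 protein-coding members, and their medians were -0.23 and -0.03. The most abundant of the lower ones was Lncenc1, an RNA of naive embryonic stem cells, with 16.2 RPKM in Suz12-KO and 51.7 in WT. The pluripotency-associated transcripts named Platr stood on both sides. Platr13 and Platr15 had 9.31 and 6.70 RPKM in Suz12-KO against 2.17 and 2.17 RPKM in WT, while Platr14 had 1.47 RPKM in Suz12-KO and 6.60 in WT. B930036N10Rik had 1.09 RPKM in Suz12-KO and 0.229 in WT. Gm10479 and B230208H11Rik, with 14 and 52 reads in Suz12-KO and 4 and 15 reads in WT, were barely past 2-fold. The counting interval of Gm10479 ran from -0.21 to 3.53 log2 and so included equality. 4933404O12Rik had 0.412 RPKM in Suz12-KO and 3.12 in WT, and Mir142hg had 0 reads in Suz12-KO and only 9 in WT. No label says whether strand was used in the counting, so an antisense RNA and its partner cannot be told apart.

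Several gene groups showed no 2-fold difference or almost none. Of all members 3.16% were 2-fold different. At that share a short list holds few or none, so these counts do not set the groups apart. Of 29 members of the mitosis list 0 were 2-fold different, although Pttg1, which is not in that list, was higher at 2.13. In the list the largest differences were those of the spindle gene Prc1, 0.50, and the centromere histone gene Cenpa, 0.42. Of 34 DNA replication members Gins2, a subunit of the replicative helicase, was the only one, with 6.82 RPKM in Suz12-KO and 2.45 in WT. Of 10 DNA methylation members it was Tdg, the thymine DNA glycosylase, with 1.07 RPKM in Suz12-KO and 0.267 in WT, a difference that dropped to 0.88 with scaling to the median of the pair. None of the 23 genes of the 2-cell-like state in the table reached 1 RPKM, with 14 reads in all in Suz12-KO and 35 in WT. Of 22 housekeeping members 0 were 2-fold different. Their median was -0.11. Xist, the RNA of X inactivation, had 3 reads in Suz12-KO and 5 in WT, and Usp9x and Ddx3x on the X chromosome were at -0.12 and 0.18. The contractile list had 1 of 6 members lower, against 1.35% of all members. This was Tpm1, which lay at the limit and fell short of 2-fold under both other scalings.

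**Figure D3:**
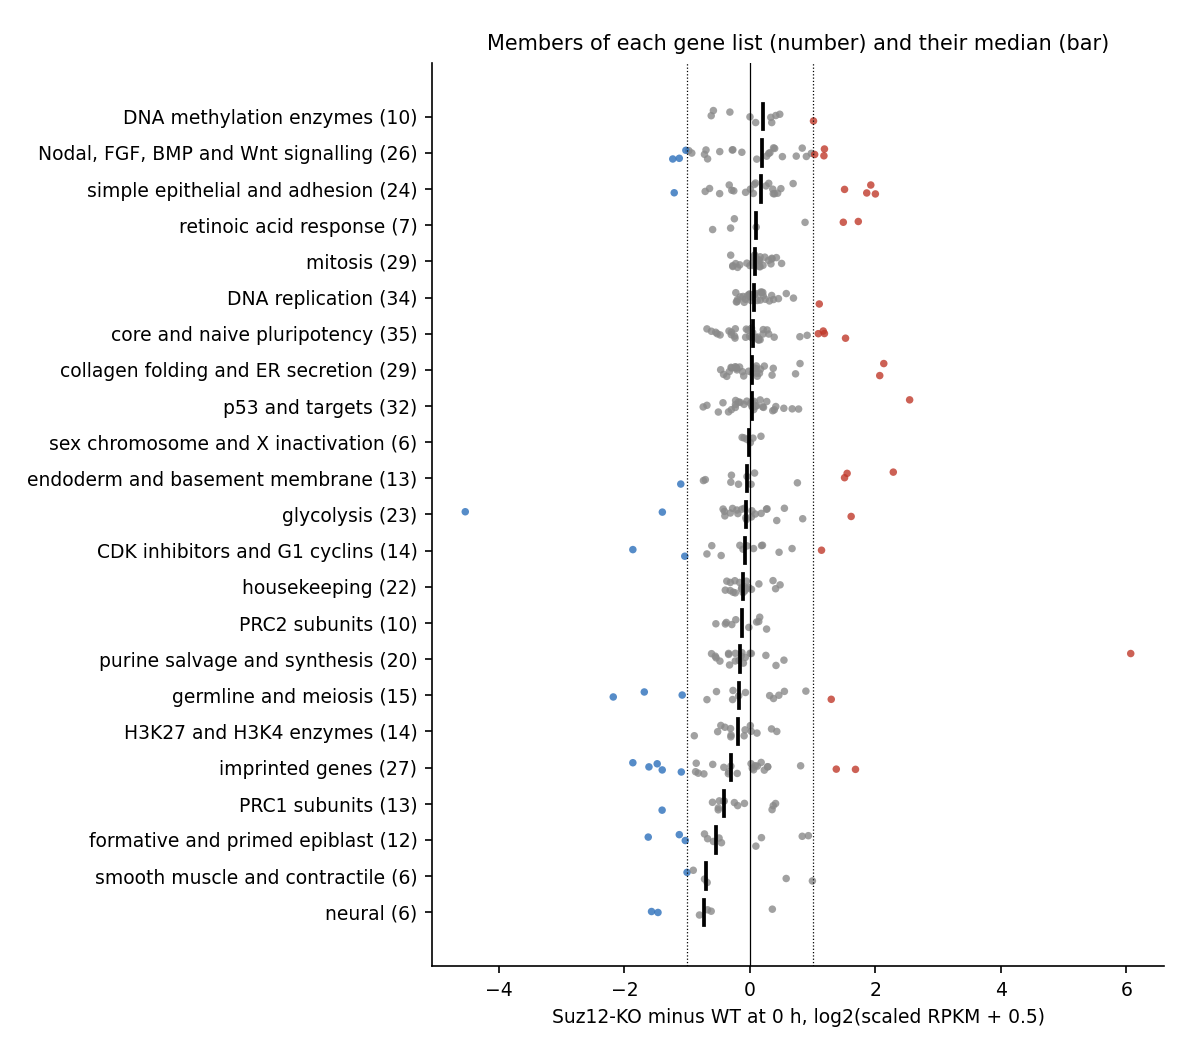
Log2 difference, Suz12-KO minus WT at 0 h, of every member of 23 gene lists with at least 6 members (number in brackets), ordered by median (black bar); red points are 2-fold higher and blue points 2-fold lower. Developmental transcription factors are not drawn, since 143 of 150 are too low; among the lists drawn, neural, contractile, epiblast and PRC1 genes have the lowest medians.

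Genes with near-identical copies need separate reading, because reads of one copy can be assigned to another. Eno1b, an intronless copy of the enolase gene Eno1, had 0.439 RPKM from 21 reads in Suz12-KO and 16.2 RPKM from 735 reads in WT (log2 difference -4.54). Eno1 itself had 3005 reads in Suz12-KO and 1302 in WT. The copy thus took 0.694% of the reads of the pair in Suz12-KO and 36.1% in WT, while the pair added differed by only 0.23 log2, with a counting interval of 0.15 to 0.31. The same opposite pattern held for ferritin light chain, where Ftl1 had 268 reads in Suz12-KO and 80 in WT and Ftl1-ps1 had 180 reads in Suz12-KO and 397 in WT. For the chromatin protein Hmga1 the reads were 325 in Suz12-KO and 100 in WT, and for Hmga1b 155 in Suz12-KO and 353 in WT. In each of these pairs 1 gene was counted as higher and its copy as lower, or nearly so for Eno1 at 0.84. Added, the pairs differed by -0.43 for ferritin and -0.26 for Hmga1. These pairs were chosen after their values were seen. Gm10800 and Gm10801, neighbouring predicted genes on chromosome 2, had 0 reads and 1 read in Suz12-KO and 118 and 15 reads in WT, and whether they share reads with copies is uncertain. How reads that match both copies were assigned was not tested.

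The differences were not spread evenly over chromosomes. The protein-coding members of chromosome 8 had a median of 0.22 (448 genes) and those of chromosome 14 a median of 0.21 (256 genes), whereas the medians of the other autosomes and of X ran from -0.11 to 0.01. On chromosome 8, 73.9% of the members were above 0, and on chromosome 14, 71.9%. The shift was also there at later times, at 0.32, 0.30 and 0.28 on chromosome 8 and at 0.26, 0.26 and 0.23 on chromosome 14 at 24, 48 and 72 h. Within these chromosomes it was regional. In windows of 10 Mb, drawn after the chromosome medians were seen, the 320 members of chromosome 8 from 70 to 130 Mb had a median of 0.31 with 85.6% above 0, against -0.06 for the 111 members from 0 to 60 Mb. On chromosome 14 the 157 members from 40 to 80 Mb had a median of 0.37 with 89.8% above 0, against -0.04 and 0.01 for the 76 members before and the 23 after that stretch. Of 142 windows with at least 20 members, 11 had a median of at least 0.2, and 10 of them were these. The other, on chromosome 13 from 20 to 30 Mb, was at 0.29 at 0 h and 0.31 at 24 h, and at 0.05 and -0.08 at 48 and 72 h. Copy number of DNA was not measured here.

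**Figure D4:**
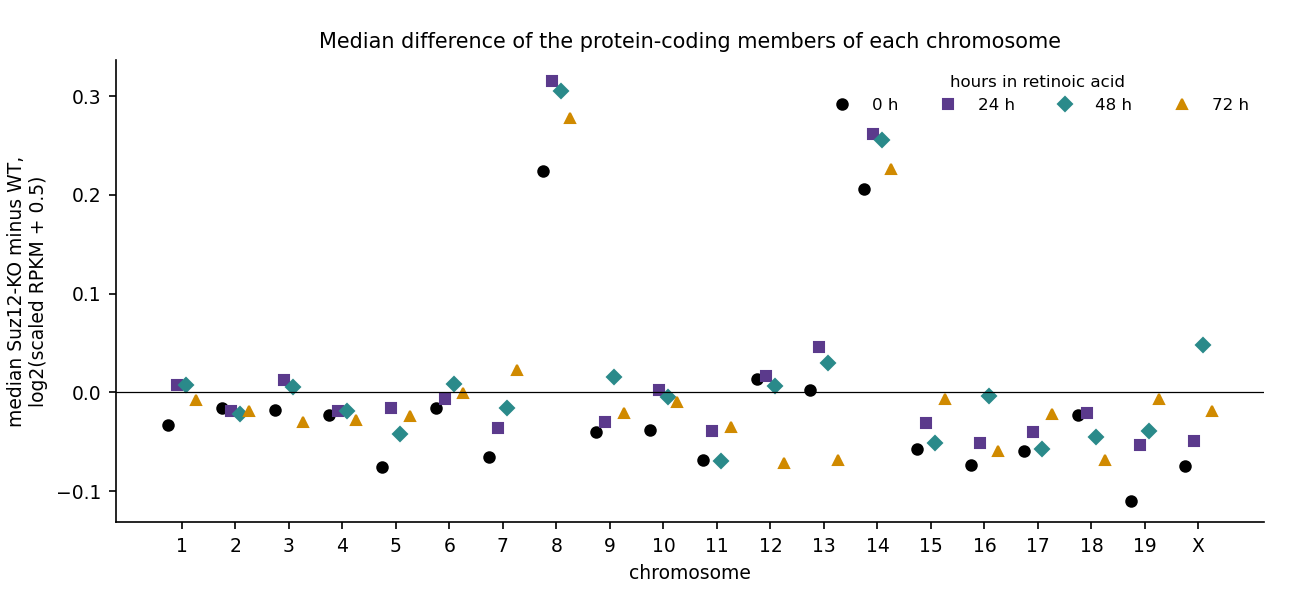
Median log2 difference, Suz12-KO minus WT, of the protein-coding members of each autosome and of X (x axis) at 0, 24, 48 and 72 h. Chromosomes 8 and 14 stand at 0.21 to 0.32 at all 4 times, and at 0 h all others lie between -0.11 and 0.01.

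In the raised stretches 9 of 320 members on chromosome 8 (2.81%) and 9 of 157 on chromosome 14 (5.73%) were 2-fold higher, against 107 of 6695 (1.6%) on all other chromosomes. The part of chromosome 8 with no raised median, from 0 to 60 Mb, had 4 of 111 higher (3.6%), above the share of the raised stretch, and the rest of chromosome 14 had 0 of 76 and 0 of 23. Without chromosomes 8 and 14 the counts were 112 higher and 93 lower genes. Col4a1 and Col4a2 lie on chromosome 8 at about 11 Mb, outside the raised stretch. Piwil2 and Gab1 lie on chromosomes 14 and 8. Some genes that were higher or lower together are neighbours. Another higher gene stood within 500 kb of 28 of the 136 higher genes (20.6%), against 11.4% of the 7266 members that were not called. For lower genes this was 16 of 101 (15.8%), against 7.71%. Adjacent sets included Olig1 and Olig2, Col4a1 and Col4a2, Miip and Fv1 among the higher genes, and Rian and Mirg, Zic2 and Zic5, Gstm1 and Gstm2 among the lower ones. On chromosome 15, Mfng, Card10, Kdelr3, Dmc1 and Rpl3 were higher genes of 1 stretch, which also holds the lower gene Cbx7, between Dmc1 and Rpl3.

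The later columns come from other samples of the same lines and share no control with the 0 h columns. At 24 h, 69 of the 136 higher genes were still 2-fold higher, where 1.55% of all members were. At 48 h it was 34 against a background of 1.09%, and at 72 h 32 against 1.8%. Of the 101 lower genes 48 were still 2-fold lower at 24 h, with 1.09% of all members, 28 at 48 h, with 0.613%, and 20 at 72 h, with 0.52%. The median difference of the higher set was 1.27, 1.01, 0.53 and 0.44 at 0, 24, 48 and 72 h, and that of the lower set was -1.32, -0.93, -0.47 and -0.41. The sets were chosen at 0 h, so their size at 0 h is fixed by that choice. At all 4 times 21 genes were 2-fold higher and 16 were 2-fold lower, 15.4% of the higher set and 15.8% of the lower set. Of all members 0.333% were 2-fold higher at 24, 48 and 72 h alike, and 0.24% were 2-fold lower. Ftl1 among the 21 and Eno1b and Hmga1b among the 16 belong to the copy pairs above. The 21 include Hprt, Pmaip1, Apoa2, Pttg1, Wfdc2, Col4a1, Col4a2, Lama1, Nnat and the hypoxia factor gene Epas1. The 16 include Rian, Mirg, Lncenc1, Eno1b, Rhox5, Sfi1, Arhgap30, Igsf23, Tuba3a, Sohlh2 and Cbx7.

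The markers of the comparison took different courses. Olig2 had 4.19, 0.855, 0.166 and 0.0649 RPKM in Suz12-KO at 0, 24, 48 and 72 h, and 0 reads in every WT column. Its expression in Suz12-KO was thus highest before retinoic acid and near 0 at the end. Serpinh1 had 5.62, 37.1, 73.9 and 126 RPKM in Suz12-KO and 0.795, 14.7, 40.1 and 76.1 RPKM in WT, and its log2 difference narrowed from 2.13 at 0 h to 0.66 at 72 h while its level was higher at each later time in both lines. Tdrd12 had 2.34, 1.96, 0.211 and 0.147 RPKM in Suz12-KO and 10.0, 9.10, 0.973 and 0.374 RPKM in WT, so it was near 0 in both lines at 72 h, and the difference of -2.18 at 0 h was -0.43 at 72 h. Lama1 diverged instead, with 10.3, 6.29, 33.5 and 55.9 RPKM in Suz12-KO against 2.77, 1.18, 2.84 and 4.67 RPKM in WT. Cbx7 had 3.54, 3.62, 1.27 and 1.13 RPKM in Suz12-KO and 8.32, 8.73, 8.94 and 8.18 RPKM in WT. Rian had at most 0.0385 RPKM in a Suz12-KO column, against 7.17, 5.61, 10.0 and 21.4 RPKM in WT.

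**Figure D5:**
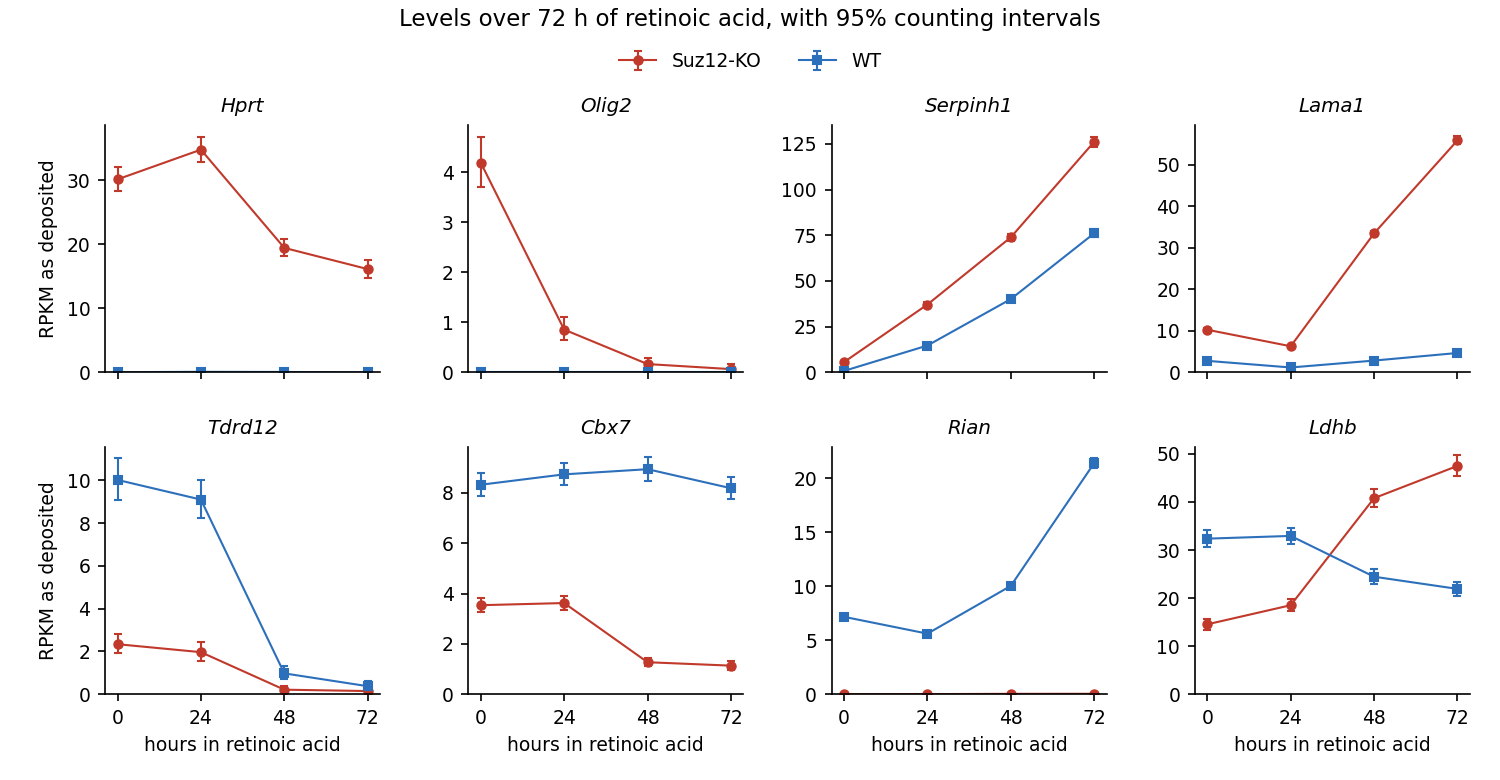
RPKM as deposited of 8 genes in Suz12-KO (red circles) and WT (blue squares) over hours in retinoic acid, with 95% counting intervals; 0 h is the comparison described here. Hprt and Rian are separate at all 4 times, Olig2 and Tdrd12 converge towards 0, Serpinh1 and Lama1 stay higher in Suz12-KO, Cbx7 stays lower, and the Ldhb lines cross between 24 and 48 h.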

How the data were processed

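The values are RPKM that the authors deposited, in 1 table with 8 columns, 1 for each group of 2 samples. Per the submitters' processing notes, TopHat, featureCounts and DESeq2 were used with GRCm38 (mm10). Versions, and how samples were pooled into a column, are not given in the sources used here. Gene IDs are those of Ensembl release 72, per the file headers. GENCODE M21 gave each gene's symbol, class and position, and a RefSeq table gave promoters.

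Whole reads were recovered by finding the column total and gene length that turn each value into whole reads. This succeeded, to within 0.01 reads, for each of the 153803 values above 0. The whole reads served for intervals and floors (95%, 3 reads), and for the read numbers, sums, shares and read ratios given. The intervals and floors cover counting error only. A count test was not run, since each group has 1 column.

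Columns were scaled by median-of-ratios over the 8 columns, and 0.5 was added before log2. The calculation was tested on simulated data. The members, gene lists and naming rule were picked with earlier results of these data known. That rule takes the 15 protein-coding and 5 long non-coding genes at each end, Suz12 and the PRC2 core, the 4 markers, and from each list its 2-fold members or else its 2 largest differences. Other genes named were picked after their values were seen. Deposited scaling, scaling to the median of each pair, pseudocounts of 0.1 and 1, other filters and leaving out chromosomes 8 and 14 were tried. Python 3.11.15, numpy 2.4.6, pandas 2.3.3, scipy 1.17.1 and matplotlib 3.10.9 were used.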

Additional observations from a re-analysis of the deposited data

Results flagged for a closer look

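In 3 genes that were 2-fold different at 0 h, the lines stood at least 2-fold apart the other way at a later time; the difference between times was not tested, as each group has 1 column. Aqp3, the glycerol channel aquaporin 3, had 7.64 RPKM in Suz12-KO and 2.46 in WT at 0 h (log2 difference 1.26), and 7.73 RPKM in Suz12-KO and 14.1 in WT at 24 h (-1.11). Tcea3, a transcription elongation factor, had 8.11 RPKM in Suz12-KO and 14.7 in WT at 0 h (-1.08), 3.80 RPKM in Suz12-KO and 0.982 in WT at 48 h (1.36), and 3.31 RPKM in Suz12-KO and 0.757 in WT at 72 h (1.52). Ldhb, a lactate dehydrogenase subunit, had 14.5 RPKM in Suz12-KO and 32.4 in WT at 0 h (-1.40), and 47.5 RPKM in Suz12-KO and 21.9 in WT at 72 h (1.03).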

How the results depend on the processing

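No paired analysis was possible because the table holds 1 pooled column per group, and for the same reason no replicate could be left out. The counts of 136 higher and 101 lower genes moved by over 1.5 times under 4 settings. They were 220 higher and 56 lower with RPKM as deposited, 52 and 34 with a filter of 5 RPKM in either column, and 59 and 48 with 1 RPKM in both, where fewer genes are compared, and the higher count was 83 with a pseudocount of 1. The share of lower genes still 2-fold lower at 48 h was 27.7%, and 39.3% as deposited, and that at 72 h was 19.8%, and 29.9% with a pseudocount of 0.1. The cause of these changes in share was not tested. Scaling to the median of each pair (115 and 81), a pseudocount of 0.1 (198 and 134), no filter (163 and 134), protein-coding genes alone (131 and 89), a counting interval without equality (134 and 101) and leaving out chromosomes 8 and 14 (112 and 93) stayed within 1.5 times. The medians of 24 lists and 20 chromosomes relative to all members stayed within their spread under all 4 scaling and pseudocount settings. This is a weak check. The median of all members is subtracted, which takes out most of a change of scaling, and the spread of a short list is wide. The developmental factor median was 1.488, and it was 2.225 with a pseudocount of 0.1 and 1.073 with a pseudocount of 1, still within that spread. As deposited, the median of all members was 0.20 in place of -0.03, and 9 of the 24 list medians changed sign, those of PRC2, H3K27 and H3K4 enzymes, basement membrane, germline, glycolysis, purine, G1 cyclin, sex chromosome and housekeeping genes. The sex chromosome list did so with the pair's median too. With 5 Mb windows, 9 of 10 windows at 0.2 or above were on chromosomes 8 and 14. No 2-fold gene named by the rule changed sign, and 30 of its gene and setting combinations fell below 2-fold, among them Zic2, Id2, Tpm1, Ccnd2 and Sohlh2, each in 3 settings.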
